A study of Rattus norvegicus with 9 samples.

Results

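Soleus muscle that had been unloaded for 7 days was compared with soleus unloaded for 2 days, to see which microRNAs (miRNAs) change as unloading goes on. The comparison took the 3 arrays labelled as 7 days and the 3 labelled as 2 days of hindlimb suspension, 6 of the 9 arrays in the series, by their sample titles. All rats were male Sprague-Dawley animals aged 6 months. The suspended rats hung by a tail device so that the hindlimbs bore no weight, and the tail device was fitted under pentobarbital. The other 3 arrays came from control soleus. The labels describe no tail device or anaesthesia for the controls and do not say whether the 3 arrays of a group came from separate animals; p-values therefore reflect only how far these arrays spread. Each array carried 334 probes for rat miRNAs, 238 with miRBase names and 96 for predicted miRNAs, each printed as 9 spots.

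The soleus is a slow postural muscle that normally carries load all day, and it loses mass quickly when the hindlimbs are unloaded. A miRNA is a short RNA cut from one arm of a hairpin; it pairs through its seed, the bases near its 5′ end, with messenger RNAs and lowers their output. In muscle the best known are miR-1, miR-133a, miR-133b and miR-206, and others such as miR-489 are known from the satellite cells that sit on the fibres. In whole-muscle RNA, fewer cells of a type and less of a miRNA per cell cannot be told apart.

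Of the 178 miRNA probes tested, 10 had an unadjusted limma p under 0.05, all with higher signal at 7 days, and none passed after Benjamini-Hochberg adjustment. Their target sequences, taken from the scanner files and written 5′ to 3′, are shown because the comparison turns on them. Capitals mark the seed, bases 2 to 8.
miR-7*: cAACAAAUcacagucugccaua
miR-505: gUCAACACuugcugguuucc
miR-489: aAUGACAUcacauauauggcagc
miR-338: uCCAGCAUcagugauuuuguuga
miR-333: gUGGUGUGcuaguuacuuuu
miR-350: uUCACAAAgcccauacacuuucac
miR-542-3p: uGUGACAGauugauaacugaa
miR-148b: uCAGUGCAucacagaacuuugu
miR-183: uAUGGCACugguagaauucacug
miR-139: uCUACAGUgcacgugucu

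The 10 targets held 10 different seeds, so they do not form a seed family. Only miR-148b shared its seed with another tested probe, miR-152, which stood at a log2 difference of -0.10 ± 0.12 (7 days minus 2 days, moderated SE). Their GC content ran from 33.3% to 50.0% with a median of 40.9%, against a median of 46.6% over all tested targets. Of the 178 tested targets, 156 were found in RefSeq hairpins or mature miRNAs of the rat assembly GRCr8, and the coordinates that follow are on that assembly. Several of the 10 lie within the span of a protein-coding gene. MiR-7* is the passenger arm of the Mir7-1 hairpin (chr17:6278752-6278773, plus strand) inside Hnrnpk. MiR-489 (chr4:32648063-32648085, minus strand) lies inside the calcitonin receptor gene Calcr, and miR-148b (chr7:136299930-136299951, plus strand) inside Copz1. MiR-338 (chr10:105796345-105796367, minus strand) lies inside Aatk, miR-350 (chr13:91244549-91244572, minus strand) inside Cep170, and miR-139 (chr1:165290865-165290882, plus strand) inside Pde2a. MiR-183 (chr4:59756105-59756127, minus strand) and miR-542-3p (chrX:137722186-137722206, minus strand) lay inside no other annotated gene.

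A second group of targets is shown because their log2 differences, the 3 lowest of all, shrank when a single 2-day array was left out, as given further on. This group was picked after its values had been seen. Capitals mark the run of the same base: the letters GGGGG in miR-290 and miR-292-5p, and a run of 7 C in miR-296.
miR-290: cucaaacuauGGGGGcacuuuuu
miR-292-5p: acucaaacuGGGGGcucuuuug
miR-296: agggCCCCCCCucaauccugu

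MiR-290 and miR-292-5p were the only 2 of all 334 targets that held GGGGG, read on the target strand (1.12% of the tested targets). The letters CCCCC stood in 3 targets on the array, of which miR-296 alone was tested (0.56% of the tested targets). MiR-290 (chr1:74880100-74880122, minus strand) and miR-292-5p (chr1:74879518-74879539, minus strand) are neighbours, and in the mouse their cluster is known from embryonic stem cells. MiR-296 (chr3:183470114-183470134, minus strand) is known from human endothelial cells.

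Detection was judged against the 614 empty spots of each array: a probe counted when over 0.5 of its spots were brighter than their 95th percentile. The 7-day arrays had 204, 190 and 187 detected probes, against 149, 160 and 178 on the 2-day arrays. The control arrays had 172, 157 and 184, also below every 7-day array. Every 7-day array lay above every 2-day array, with a mean difference of 31.3 probes and an exact two-sided permutation p of 0.1, the smallest that 3 arrays against 3 allow. With the 99th percentile as the limit the groups overlapped (161 to 183 probes at 7 days, against 119 to 173 at 2 days; exact permutation p = 0.2). The empty-spot limit differed too: it was 32.5, 32.0 and 38.4 units of scanner brightness on the 7-day arrays, against 33.7, 73.3 and 54.1 on the 2-day arrays. On the control arrays it was 43.0, 53.6 and 31.6. The 2-day array 1 had the low limit of the 7-day arrays but dimmer miRNA spots, with a 75th percentile of 212, where the 7-day arrays had 376, 357 and 456 and the other two 2-day arrays 460 and 439. The spike-in probes averaged log2 14.18 ± 0.12 at 7 days and 13.99 ± 0.15 at 2 days (SD, n = 3 each; exact permutation p = 0.3). The part of these technical differences in the detected counts was not tested.

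All 178 tested probes were detected on each of the 3 seven-day arrays, and 143 of them also on each of the 3 two-day arrays. A further 29 passed the filter only through the 7-day arrays, and no probe passed only through the 2-day or the control arrays. So the tested set leans towards probes that were visible at 7 days. No predicted miRNA was among the 10 with the smallest p: of the 11 predicted ones tested, 5 had higher and 6 had lower values at 7 days, with a median log2 difference of -0.11.

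No miRNA differed between soleus after 7 and 2 days past the adjusted threshold, except under one scaling. By limma on quantile normalised values, which are given the same distribution on every array, 0 of the 178 tested miRNAs (0%) passed an adjusted p of 0.05, and the lowest adjusted p was 0.392. With each array centred on the median of all its miRNA spots, 16 passed, all higher at 7 days, and 158 of the 178 had higher values. At an unadjusted p under 0.05 there were 10 (5.62% of those tested), 10 higher (5.62%) and 0 lower (0%) at 7 days. Over all tested miRNAs 100 had higher and 78 had lower values, and the median log2 difference was 0.02. The difference lay within 0.5 log2 units of 0 for 169 miRNAs. The 95% interval lay wholly within a 2-fold change either way for 154 and within a 1.5-fold change for 103. A larger change is outside the interval for those miRNAs only under the reported offset of the background correction and the reported scaling. With a smaller offset of 16 each of the 10 had a larger log2 difference. MiR-338 then stood at 0.72 and miR-333 at 0.66, against 0.42 and 0.40 as reported. The interval counts were not taken in other settings. The median SE was 0.166 log2 units.

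**Figure D1:**
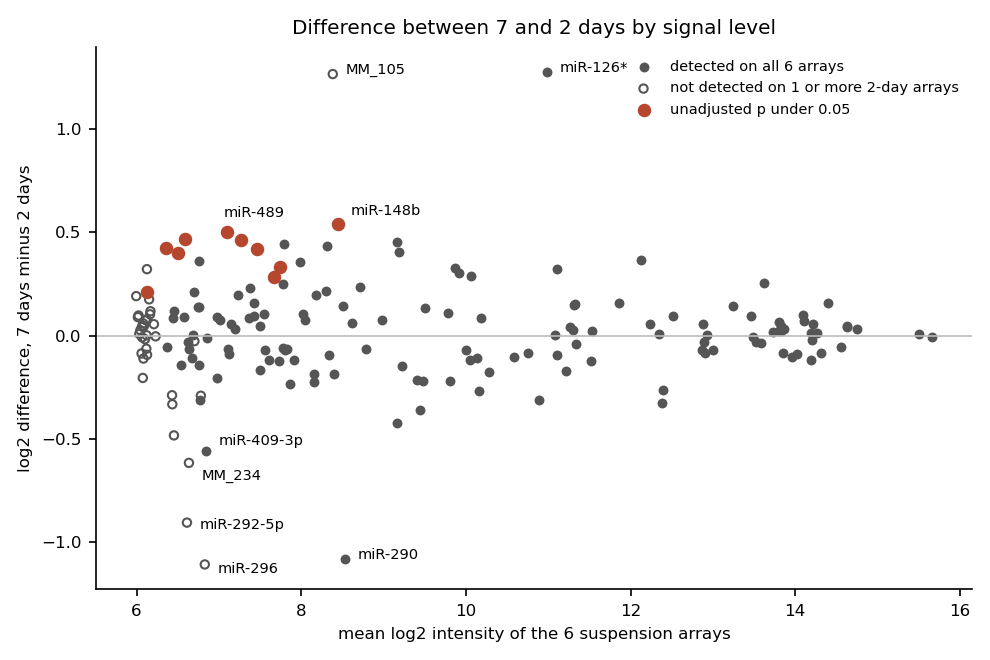
Log2 difference (7 days minus 2 days) of each of the 178 tested miRNAs against its mean log2 intensity over the 6 suspension arrays; filled points were detected on all 6 arrays, open points missed at least 1 two-day array, and red points had an unadjusted limma p under 0.05. The 10 red points lie above 0 and to the left, at mean levels under 9, and the farthest points below 0 are miR-296, miR-290 and miR-292-5p.

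Split by mean level, the dimmest 59 tested miRNAs held 5 of the 10, the middle 59 held the other 5, and the brightest 60 held none. The median SE in those sets, from dim to bright, was 0.146, 0.219 and 0.120. Quantile normalisation presses the brightest probes to nearly the same value on every array, which narrows their spread. Their low SE therefore cannot show that they were measured more closely.

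The split into higher and lower values at an unadjusted p under 0.05 rested on how arrays were brought to a common scale. Of the 10 themselves, miR-542-3p and miR-338 turned sign under some scalings and the other 8 stayed positive. The median log2 difference of all tested miRNAs was 0.02 with quantile normalisation, 0.12 without normalisation between arrays, and 0.37 with each array centred on the median of all miRNA spots. Centred on the miRNAs detected on every array it was -0.15. The split, over whichever miRNAs reached an unadjusted p under 0.05 in each scaling, moved with it. It was 66 of 66 higher with median centring, 2 of 16 higher with 75th percentile centring, 6 of 9 with cyclic loess, 9 of 11 without normalisation, 2 of 6 centred on the spike-in probes, 1 of 2 centred on 5S ribosomal RNA and 1 of 26 centred on the median of the detected miRNAs. Of the 9 scalings tried, 7 only shift each array by a constant and so leave a miRNA's difference from the median of all miRNAs unchanged. That leaves 3 distinct values, with quantile normalisation, cyclic loess and constant shifts. Relative to that median 9 of the 10 stood higher at 7 days in each, though the 10 were picked by p on these same arrays. MiR-542-3p, at 0.19, 0.15 and -0.12, was the exception. Leaving out 2-day array 1 raised the count to 33 (18 higher), and leaving out 7-day array 2 lowered it to 6 (6 higher).

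**Figure D2:**
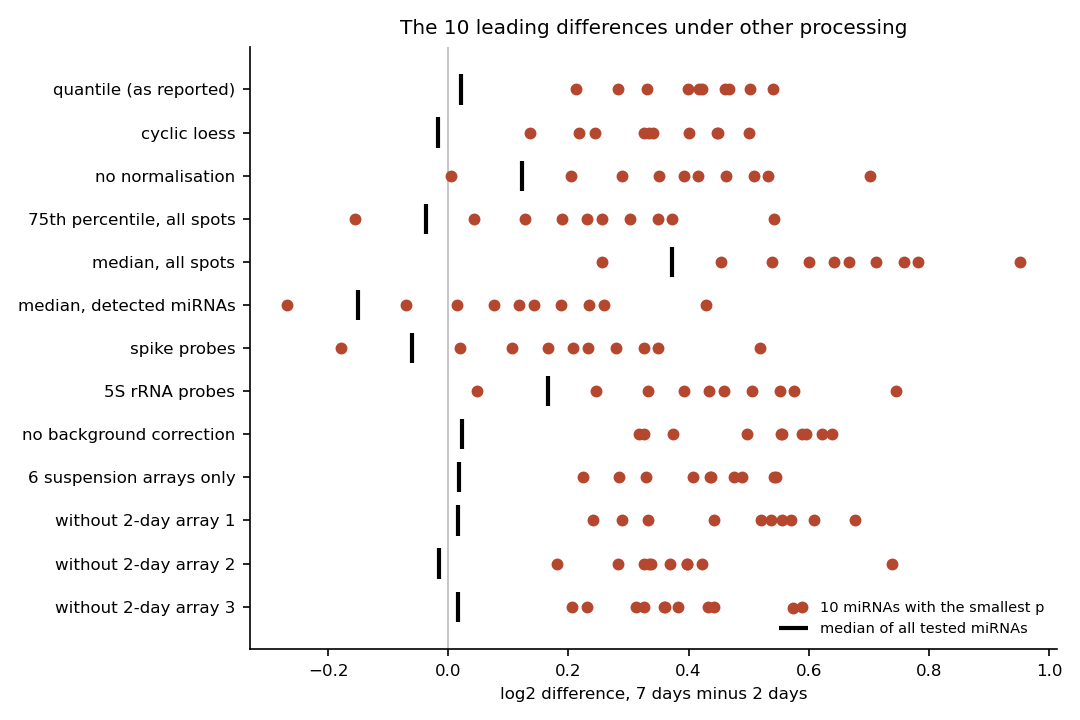
Log2 difference (7 days minus 2 days) of the 10 miRNAs with the smallest p (red points) and the median of all tested miRNAs (black bar) under 13 of the settings tried, with the reported quantile normalisation at the top. The red points move with the black bar between scalings, from a median of 0.37 to one of -0.15, and most stay to its right.

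MiR-489 is known in the mouse for holding satellite cells in their resting state. Its log2 intensity was 7.33, 7.36 and 7.37 on the 7-day arrays, against 6.88, 6.67 and 7.01 on the 2-day arrays. All 7-day arrays lay above all 2-day arrays, with a log2 difference of 0.50 ± 0.15 (95% interval 0.15 to 0.86, 1.42-fold; limma adjusted p = 0.392). MiR-148b, of the miR-148 and miR-152 family that is known for repressing DNA methyltransferase genes, stood at log2 8.73, 8.80 and 8.63 at 7 days and at 8.16, 8.57 and 7.81 at 2 days. The groups did not overlap, but 2-day array 2 came within 0.1 of the lowest 7-day array. Its log2 difference was the greatest of the 10, at 0.54 ± 0.18 (1.46-fold; limma adjusted p = 0.392), and was 0.36 without 2-day array 3.

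MiR-7* comes from the hairpin of miR-7, which is best known from neurons and endocrine cells. Its log2 intensity was 7.49, 7.67 and 7.35 at 7 days and 7.23, 6.90 and 7.00 at 2 days. The groups did not overlap, and the log2 difference was 0.46 ± 0.13 (1.38-fold; limma adjusted p = 0.392), the smallest p of all before adjustment. MiR-505, known in mouse cells for repressing the splicing factor gene Srsf1, was nearly the same on the 7-day arrays (7.81, 7.81 and 7.80) and lower on the 2-day arrays (7.62, 7.52 and 7.43). Its log2 difference was 0.28 ± 0.08 (1.22-fold; limma adjusted p = 0.392). MiR-350, from the Cep170 gene, stood at 7.97, 7.95 and 7.80 at 7 days and at 7.49, 7.59 and 7.65 at 2 days. It too had no overlap between the groups, and its log2 difference was 0.33 ± 0.11 (1.26-fold; limma adjusted p = 0.392).

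**Figure D3:**
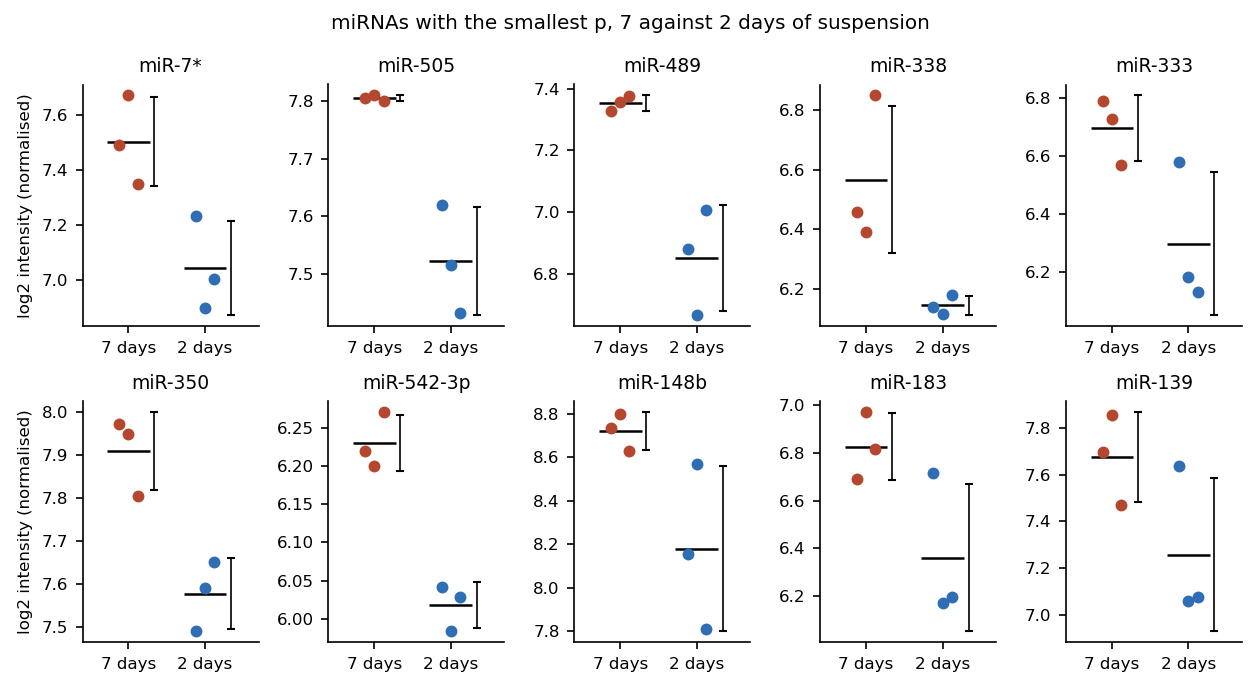
Normalised log2 intensity of the 10 miRNAs with the smallest p on each 7-day array (red, left) and each 2-day array (blue, right), with the mean as a line and the SD as a bar (n = 3 arrays each); each panel has its own axis. The groups are apart in 7 panels, and in those of miR-333, miR-183 and miR-139 the upper 2-day point, array 1, lies within the range of the 7-day points.

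In 3 of the 10 the groups overlapped, each time through 2-day array 1. MiR-183, known from the sensory cells of the ear and eye, stood at 6.69, 6.97 and 6.82 at 7 days and at 6.72, 6.17 and 6.19 at 2 days (log2 difference 0.47 ± 0.17; limma adjusted p = 0.455). MiR-139, known in human tumour cells for repressing the insulin-like growth factor receptor gene, stood at 7.70, 7.86 and 7.47 at 7 days and at 7.64, 7.06 and 7.08 at 2 days (0.42 ± 0.17; limma adjusted p = 0.709). MiR-333 stood at 6.79, 6.73 and 6.57 at 7 days and at 6.58, 6.18 and 6.13 at 2 days (0.40 ± 0.13; limma adjusted p = 0.392). In each of them the dim 2-day array 1 was the high one, and the other two 2-day arrays lay below every 7-day array.

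MiR-338 and miR-542-3p were near background at 2 days, where each was detected on 1 of 3 arrays. MiR-338, known from oligodendrocytes and neurons, stood at log2 6.46, 6.39 and 6.85 at 7 days and at 6.14, 6.11 and 6.18 at 2 days (log2 difference 0.42 ± 0.13; limma adjusted p = 0.392). In scanner brightness before any correction it read 48.2, 52.7 and 107 at 7 days and 32.7, 69.9 and 70.2 at 2 days, where the groups overlap. MiR-542-3p, known in mice for causing muscle wasting when overexpressed, stood at 6.22, 6.20 and 6.27 at 7 days and at 6.04, 5.98 and 6.03 at 2 days (0.21 ± 0.07; limma adjusted p = 0.392). Its raw brightness overlapped as well, with 39.3, 41.1 and 57.8 at 7 days and 30.6, 56.5 and 57.8 at 2 days. Of the 10, only miR-7* and miR-139 were apart in raw brightness, where 15 tested probes (8.43%) had every 7-day array above every 2-day array and 4 (2.25%) the reverse.

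On the normalised scale every 7-day array lay above every 2-day array for 9 tested miRNAs (5.06%) and below for 2 (1.12%). The 9 were 7 of the 10 above with miR-424 and miR-23b, whose differences were small (0.16 ± 0.09 and 0.04 ± 0.06). The 2 with lower values were miR-1* (-0.33 ± 0.19), the passenger arm of miR-1, and miR-190 (-0.09 ± 0.07), both dim. MiR-190 was detected on 1 of the 3 two-day arrays.

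Beyond the 10, the next smallest p-values included lower values at 7 days. MiR-494, of the imprinted Dlk1-Dio3 cluster, stood at 6.88, 6.88 and 6.85 at 7 days and at 7.18, 7.17 and 6.88 at 2 days (log2 difference -0.21 ± 0.09; limma adjusted p = 0.932). MiR-99b stood at -0.27 ± 0.13, miR-409-3p of the same imprinted cluster at -0.56 ± 0.31, and miR-664 on the other side at 0.43 ± 0.23. The predicted probes MM_105 and MM_234 lay far out with large errors: MM_105 at 1.27 ± 1.11 and MM_234 at -0.62 ± 0.44. The predicted probe Mmj_10 stood at -0.48 ± 0.39 and Mmj_156, near background, at 0.19 ± 0.09.

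The differences of miR-290, miR-292-5p and miR-296, the targets with runs of G or C shown above, turned on single 2-day arrays. Array 2 was the highest and array 3 also lay above every 7-day array, while array 1 lay within the range of the 7-day values. MiR-290 stood at 8.22, 7.86 and 7.90 at 7 days and at 7.99, 10.49 and 8.74 at 2 days (-1.08 ± 0.58, and -0.37 without 2-day array 2). MiR-292-5p stood at 6.26, 6.04 and 6.18 at 7 days and at 6.06, 8.38 and 6.76 at 2 days (-0.91 ± 0.50, and -0.25 without that array). MiR-296 stood at 6.10, 5.97 and 6.76 at 7 days and at 6.02, 8.72 and 7.42 at 2 days (-1.11 ± 0.63, and -0.45 without it). Without 2-day array 1 the differences were -1.61, -1.45 and -1.83, still short of the adjusted limma threshold. Array 2 had the highest empty-spot level of the 6, with a median of 53.3, and its part in these values was not tested. Control arrays read between 7.56 and 8.52 for miR-290, near the 7-day values. This dependence on array 2 was not particular to targets with such runs. Without array 2 the predicted probe MM_234 moved from -0.62 to -0.17 and Mmj_10 from -0.48 to -0.12. Neither target holds GGGGG or CCCCC.

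MiR-126*, the passenger arm of the endothelial miR-126 hairpin inside Egfl7 (chr3:29813182-29813202, plus strand), had the highest difference of all at 1.28 ± 0.70. Its log2 intensity was 11.86, 11.84 and 11.17 at 7 days and 11.23, 11.06 and 8.74 at 2 days. The groups overlapped, 2-day array 3 was far below the rest, and the difference was 0.46 without it. The other arm, miR-126, stood at 0.07 ± 0.08. Against the control arrays (9.76, 8.07 and 8.47) miR-126* had log2 differences of 1.58 at 2 days and 2.86 at 7 days (limma adjusted p = 0.715 at 2 days and 0.138 at 7 days).

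**Figure D4:**
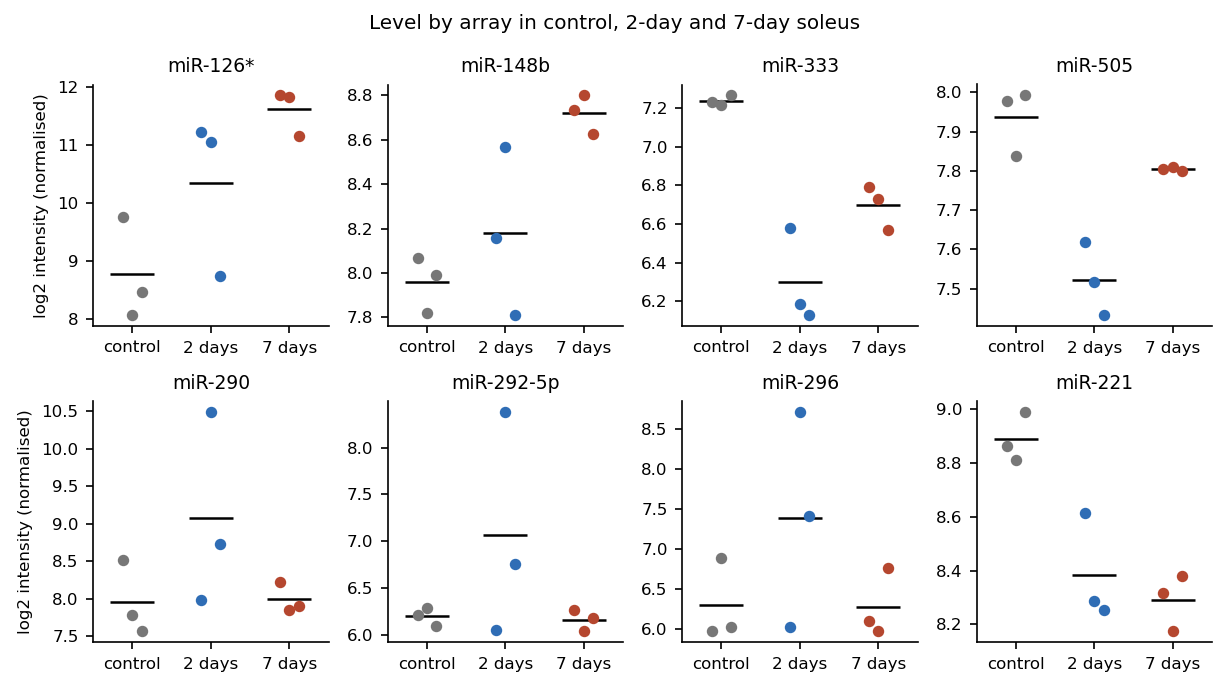
Normalised log2 intensity of 8 miRNAs on the control (grey), 2-day (blue) and 7-day (red) arrays, 3 arrays each, with the group mean as a line and an axis of its own in each panel. MiR-126* and miR-148b have their highest means at 7 days, miR-333 and miR-505 their lowest at 2 days, and in the panels of miR-290, miR-292-5p and miR-296 a 2-day point, array 2, stands highest.

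Set beside control muscle, the 10 miRNAs took several courses. The comparisons of 2 and of 7 days with control share arrays with the one between 7 and 2 days, so the values are given side by side. By the sign of the mean, 4 of the 10 were lower than control at 2 days and higher at 7 days, 4 were higher at both times and 2, miR-333 and miR-505, were lower at both; some of these differences were smaller than their SE. MiR-333 had the only adjusted limma call at 2 days (1 of 178, 0.562%), with a log2 difference from control of -0.94 at 2 days and -0.54 at 7 days, and none passed at 7 days (0 of 178, 0%). These calls against control depended on the processing. At 2 days, 16 of 29 alternatives made a call among the named miRNAs, and the share of miR-333 in these was not counted separately. Besides miR-333, calls at 2 days were made for miR-505 and for the pair of miR-222 and miR-221. At 7 days 12 named miRNAs, with miR-126*, miR-139, miR-148b and miR-333 among them, passed in at least 1 of the 10 alternatives that made a call. For miR-505 the values were -0.41 and -0.13. MiR-489 stood at -0.27 ± 0.15 and 0.23 ± 0.15, miR-7* at -0.20 ± 0.13 and 0.26 ± 0.13, and miR-350 at -0.19 ± 0.11 and 0.14 ± 0.11. MiR-542-3p stood at -0.12 ± 0.07 and 0.09 ± 0.07, and its 7-day value was negative in 5 of 26 alternatives. MiR-148b stood at 0.22 ± 0.18 and 0.76 ± 0.18, and miR-139 at 0.14 ± 0.17 and 0.55 ± 0.17. MiR-183 (0.01 ± 0.17 and 0.48 ± 0.17) and miR-338 (0.03 ± 0.13 and 0.46 ± 0.13) were within their SE of control at 2 days, with a negative 2-day value in 9 of 29 and 2 of 28 alternatives.

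Other miRNAs with small p against control moved little between 7 and 2 days. MiR-221 and miR-222, known from proliferating myoblasts, were below control by 0.60 and 0.61 at 7 days and by 0.50 and 0.54 at 2 days. Their differences between 7 and 2 days were -0.09 ± 0.12 and -0.07 ± 0.11. The predicted probe MM_264 stood 0.62 above control at 7 days and 0.77 above it at 2 days, a difference of -0.15 ± 0.21.

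The striated muscle miRNAs were nearly level between 7 and 2 days. Of 7 tested members, 2 had higher and 5 lower values at 7 days, where 56.2% of all tested miRNAs were higher. None had an unadjusted p under 0.05, and the median log2 difference was -0.02, against 0.02 for all tested miRNAs. MiR-1 (-0.01 ± 0.06) and miR-206 (0.01 ± 0.06) sat at the top of the signal range on every array, where normalisation holds values together. MiR-133a stood at -0.02 ± 0.11, miR-133b at -0.06 ± 0.11 and miR-499, carried in the slow myosin gene Myh7b, at 0.01 ± 0.07. MiR-208, from the heart myosin gene Myh6, was not detected on any 2-day array (-0.21 ± 0.15). Apart from miR-208 and miR-1*, these markers of the labelled tissue were bright on all 6 arrays. The list's summed intensity after correction and normalisation, on a linear scale, was 159454 to 162832 at 7 days, against 155859 to 167696 at 2 days. Normalisation holds such bright sums together too.

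Of 16 tested satellite cell and myoblast miRNAs, 12 had higher and 4 lower values at 7 days, where 100 of all 178 (56.2%) were higher. An unadjusted p under 0.05 was reached by 2 (miR-489 and miR-542-3p, against 5.62% over all tested), none passed adjusted, and the median log2 difference was 0.09, against 0.02 over all. Several of them come from a cluster on chromosome X whose members miR-424 (listed beside its other arm, miR-322) and miR-503 are known in the mouse for taking myoblasts out of the cell cycle. Of that cluster 5 miRNAs were detected on all 6 arrays, and 4 of these had higher values, where 56.2% of all tested miRNAs did: miR-450 stood at 0.29 ± 0.17, miR-424 at 0.16 ± 0.09, miR-322 at 0.16 ± 0.13 and miR-503 at 0.14 ± 0.15. MiR-351 was the lower one (-0.07 ± 0.15). The cluster's miR-542-3p and miR-542-5p, seen on 1 and on 0 of the 3 two-day arrays, were left out of that count. The counts of the whole list above do include both, each with a higher value at 7 days. Relative to the median of all miRNAs the satellite cell and myoblast list stood at 0.06 with quantile normalisation, 0.06 with cyclic loess and 0.01 with constant shifts.

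**Figure D5:**
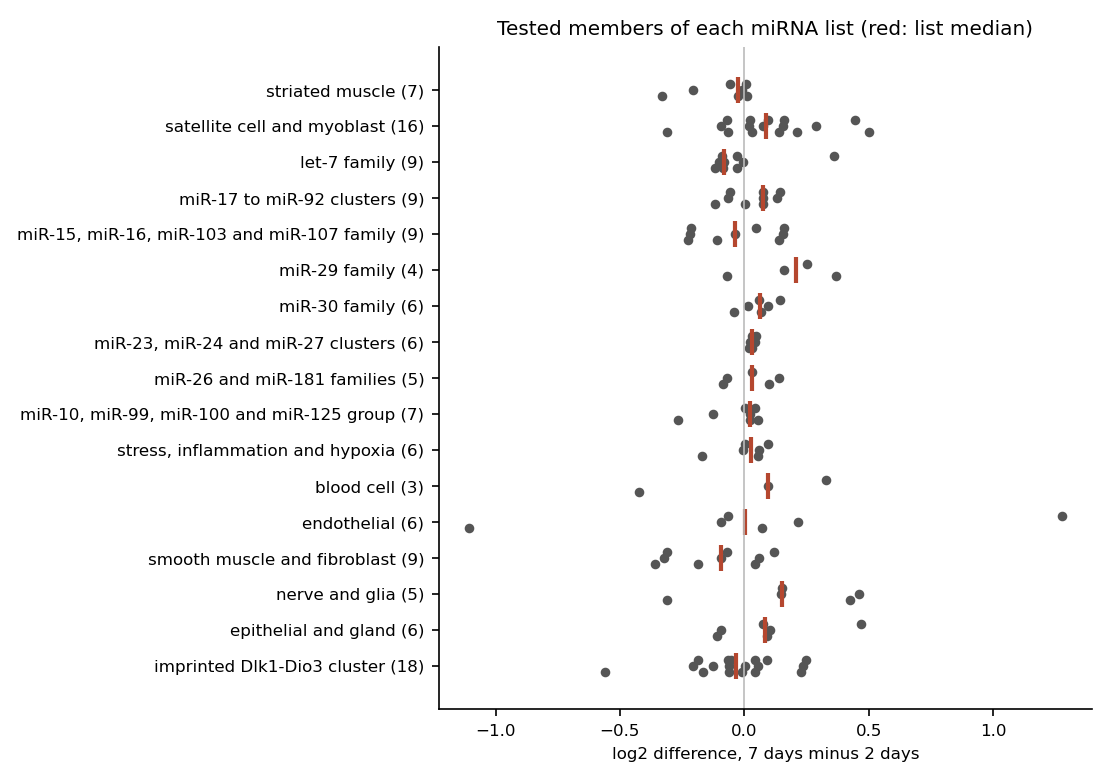
Log2 difference (7 days minus 2 days) of the tested members of 17 miRNA lists (grey points, number of members in brackets) with the list median as a red bar. Medians run from -0.10 for smooth muscle and fibroblast to 0.21 for the miR-29 family, and single members spread more widely than the medians do.

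Among the families, let-7, known for holding back growth in differentiated cells, had 8 of 9 members with lower values at 7 days and a median of -0.08. Over all 178 tested miRNAs 78 were lower and 100 higher. Each was small: let-7f, the lowest, stood at -0.12 ± 0.12, and several let-7 targets differ by at most 2 bases and may share signal. The one higher member was let-7d* (0.36 ± 0.21), the passenger arm. The miR-29 family, known for repressing collagen genes, had 3 of 4 members higher and a median of 0.21, with miR-29c at 0.25 ± 0.18 and miR-29a at 0.16 ± 0.10. None of either family had an unadjusted p under 0.05. Both medians rested on 2-day array 1: without it the miR-29 median was 0.0090 and the let-7 median 0.04.

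The other families differed little, and none of their members had an unadjusted p under 0.05. Their counts stand beside 56.2% higher over all tested miRNAs. The miR-23, miR-24 and miR-27 clusters, of which miR-23a is known in the mouse for repressing the atrophy ligase genes, had 6 of 6 members higher, all by less than 0.05, with a median of 0.03 and miR-23a at 0.05 ± 0.07. The miR-30 family had 5 of 6 higher (median 0.06, miR-30d at 0.10 ± 0.12), and the miR-17 to miR-92 clusters, which drive proliferation, 6 of 9 higher (median 0.07, miR-17 at 0.14 ± 0.12). The family that holds miR-15b, miR-103, miR-107 and miR-195 had 4 of 9 higher (median -0.04). The miR-26 and miR-181 families had 3 of 5 higher (median 0.03, miR-26b at 0.10 ± 0.11). The group of miR-10, miR-99, miR-100 and miR-125 had 5 of 7 higher (median 0.02). The imprinted Dlk1-Dio3 list had 8 of 18 higher (median -0.03), and the stress, inflammation and hypoxia list 4 of 6 (median 0.03), with miR-146, a brake on inflammatory signalling, at -0.17 ± 0.14.

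Markers of other cells in the muscle differed in direction, where 56.2% of all tested miRNAs were higher at 7 days. Smooth muscle and fibroblast miRNAs had 3 of 9 higher and a median of -0.10, with miR-145 at -0.32 ± 0.19 and miR-214 at -0.31 ± 0.19. Their summed normalised intensity, on a linear scale, was 18893 to 20873 at 7 days and 20697 to 22977 at 2 days. Endothelial miRNAs had 3 of 6 higher and a median of 0.00, between miR-126* and miR-296. Their summed normalised intensity, which includes miR-126*, was 21572 to 22988 at 7 days and 18828 to 20684 at 2 days, without overlap. The sums of the other marker lists overlapped between the groups. These sums were not tested. Of the 6 blood cell miRNAs on the array 3 were tested, 2 of them higher (median 0.09), and the red cell miRNA miR-451 stood at -0.43 ± 0.35. Blood markers miR-144 and miR-142-3p were detected on none of the 6 arrays.

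Nerve and glia miRNAs had 4 of 5 tested members higher (median 0.15, and -0.17 without 2-day array 2), where 56.2% of all tested miRNAs were higher. An unadjusted p under 0.05 was reached by 2 of the 5, miR-7* and miR-338, against 5.62% over all tested. MiR-338, counted among the 4 higher, was near background at 2 days. Of the 16 on the array 7 were detected on none of the 6 arrays, the neuronal miR-9, miR-137 and miR-153 among them. The summed normalised intensity of the list, on a linear scale, overlapped between 7 days (6117 to 6932) and 2 days (4066 to 7935). The epithelial and gland list had 4 of 6 tested members higher (median 0.08), 1 of them, miR-183, at an unadjusted p under 0.05, where 56.2% of all tested were higher and 5.62% had such a p, and 6 of its 15 probes, miR-141 and miR-200a among them, were detected on none of the 6 arrays. The part of other cells in the values of miR-7*, miR-338 and miR-183 was not tested.

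Single arrays moved these list medians as much as the medians themselves. Leaving out 1 array turned the sign of 13 of the 17, nerve and glia among them, which stood at 0.15 with all arrays and at -0.17 without 2-day array 2. Smooth muscle and fibroblast kept its sign (-0.17 to -0.04), as did satellite cell and myoblast (0.03 to 0.14), the miR-23, miR-24 and miR-27 clusters (0.0080 to 0.05) and the miR-29 family. Against the median of all tested miRNAs, smooth muscle and fibroblast stood at -0.12 with quantile normalisation, -0.07 with cyclic loess and -0.06 with constant shifts. The epithelial and gland list stood at 0.06, -0.0075 and -0.03.

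Where both arms of a hairpin were tested, their values could differ in sign. MiR-7* of the Mir7-1 hairpin stood at 0.46 ± 0.13 and miR-7, whose target was found at 2 loci and so is not specific to that hairpin, at -0.31 ± 0.23, with 2-day array 1 (7.46) above the other 5 arrays (6.38 to 6.75). Of the let-7d hairpin, let-7d* stood at 0.36 ± 0.21 and let-7d at -0.10 ± 0.10. The arms of Mir322 stood at 0.16 ± 0.09 (miR-424) and 0.16 ± 0.13 (miR-322). The difference between arms was not tested. Over all 9 tested passenger arms named with an asterisk, 5 were higher and 4 lower, with a median of 0.02.

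Probes detected on all 3 seven-day arrays and on none of the 2-day arrays numbered 7, and no probe showed the reverse. They were miR-130b, miR-187, miR-200c, miR-208, miR-542-5p and the predicted Mmj_4 and Mmj_156. Only Mmj_4 gave a bound above 1, at least 1.11-fold higher at 7 days than the lowest detectable signal on the 2-day arrays. Its adjusted limma p was 0.948, and its log2 difference of 0.32 was negative in 4 of 28 alternatives, down to -0.17 with median centring over detected miRNAs. The other 6 were dim enough at 7 days that no fold can be given. Their log2 differences ran from -0.21 for miR-208 to 0.19 for Mmj_156.

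The arrays of the 7-day group were more alike than those of the 2-day group. The median SD of a tested miRNA between arrays was 0.117 at 7 days and 0.247 at 2 days, a ratio of 2.11, and the SD was larger at 2 days for 147 of the 178. The mean correlation between arrays of log2 intensity over the tested miRNAs lay between 0.994 and 0.996 for each 7-day array with the other two of its group, and between 0.976 and 0.983 for each 2-day array. In the 2-day group the array farthest from the middle value was array 1 for 97 miRNAs, array 2 for 44 and array 3 for 37. An SD above 1 was seen for 5 miRNAs at 2 days (miR-126*, miR-290, miR-292-5p, miR-296 and MM_105) and for 1 at 7 days. The limma errors pool these groups with the control arrays, whose median SD was 0.174. They may therefore be too large for the 7-day group and too small for the 2-day group.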

How the data were processed

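Per the labels' protocols, small RNA from total soleus RNA was tailed with poly(A), tagged and hybridised to a 1-colour (Cy5) microfluidic chip by a service provider. Each deposited scanner file gives, per the file headers, each spot's mean brightness (intensity) on a linear scale, with commas inside large numbers and no local background. The authors' deposited value table holds whole-number intensity values for 162 probes; on the log2 scale it correlated with scanner brightness across probes at 0.943 to 0.990, its medians per array lay between 306 and 403.5, and its centring is unknown. It served as an alternative. The sources used here do not give the image software or the authors' normalisation.

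In R 4.3.3 with limma 3.58.1, spots of each array were corrected with normexp (offset 50) although no local background exists, quantile normalised over the 9 arrays on the log2 scale and averaged over 9 spots. Tested were the probes seen on all 3 arrays of any group, with 1 mean per group over all 9 arrays (7.78 degrees of freedom), with Benjamini-Hochberg adjustment over 178 probes. Errors are moderated SEs, and only 3 arrays per group limit the precision. Fold changes and intervals are those of this offset and scaling. A bound ("at least") sets the 7-day mean against, per 2-day array, the higher of the lowest detected signal and the probe's own. The scripts were tested on simulated data. Other settings tried were the scaling, background, detection limit, filter, spot summary, array weights, a replicate block, the arrays used, and each array left out.

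Named miRNAs were the 20 with the smallest p, the 5 highest and 5 lowest differences, all striated muscle members, the member with the smallest p of each other list, probes detected in 1 suspension group only, 3 predicted probes, and the 5 smallest p against control at each time. Members of lists and arms described beside them were added after their values were seen. The members and the 17 lists were chosen with earlier results of these data known. Deviations of same-numbered arrays from their group means correlated at 0.23, -0.18 and 0.35 between 7 and 2 days. With so few arrays these values can neither show nor exclude a pairing, and the main fit treated the arrays as unpaired. Levels of different probes are not compared. Sequences are the targets in the scanner files, placed with RefSeq tables of GRCr8.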

Additional observations from a re-analysis of the deposited data

Results flagged for a closer look

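One control probe outside the miRNA measurement, a-PUC2MM2d, a spike-in control probe whose name is given by the scanner files, was brighter on every 7-day array (log2 scanner brightness 12.00 to 12.50) than on every 2-day array (8.43 to 11.82) and every control array (7.63 to 10.82). Its mean was 3.39 log2 units above the controls and 1.74 above the 2-day arrays. It was the only one of 14 bright control probes to stand apart in this way, and it entered no comparison. The search looked only for probes highest at 7 days. A dimmer control probe, a1-PUC2MM-20B, was highest at 2 days. It read 5.74 to 6.34 there, against 5.04 to 5.38 at 7 days and 4.92 to 5.65 on the control arrays.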

How the results depend on the processing

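The adjusted count of 0 held in 29 of the 30 alternatives run and was 16, all higher, with median centring over all spots. The count at an unadjusted p under 0.05 was 66 with median centring, 16 with 75th percentile centring, 27 with array weights, 5 in the authors' value table and 4 in that table with a pseudocount of 50; it ran from 6 to 33 with arrays left out one at a time. The median difference of all tested miRNAs was 0.37 with median centring, -0.037 with 75th percentile centring, -0.017 with cyclic loess, 0.12 without normalisation and -0.0052 with no detection filter, and ran from -0.0145 to 0.0326 with arrays left out. With the replicate number as a block (replicate block), 11 miRNAs had an unadjusted p under 0.05 and 0 passed adjusted, and the median stayed at 0.02. Chosen after seeing the data were centring on spike-in probes (count 6, median -0.060), on 5S rRNA probes (2, 0.17), and on the median (26, -0.15) or 75th percentile (40, -0.15) of miRNAs detected on all arrays.

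Of the 10 leading differences, 8 were positive in all alternatives run. The 10 were picked by p on the same arrays that the alternatives process again, so a kept sign is no separate support. MiR-542-3p turned to -0.16 with 75th percentile centring, -0.18 on spike-in probes, and -0.27 with both centrings over detected miRNAs, where miR-338 was -0.070 and -0.069. The cause was not tested. The difference in detected probes ran from 24.7 to 39.2, and the ratio of SDs from 1.95 to 2.30. Dim probes limit miR-338 and miR-542-3p most.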
